A study of Homo sapiens with 16 samples.

Results

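The genes described here are 8 members of the cellular zinc system: the metallothioneins MT1A, MT1E, MT1F, MT1G, MT1X and MT2A, the transcription factor MTF1 and the zinc exporter SLC30A1. They were taken as every probe whose gene symbol in the signal table equals one of these names, and each symbol had 1 probe, so 8 of 20589 probes and 8 of 18190 symbols were followed. All 8 probes were detected on all 16 arrays and were tested together with the other detected probes, 12321 in all.

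MCF10HER2 is a breast epithelial line derived from the nontransformed line MCF10A by transduction for stable HER2 over expression, and all cultures were of this 1 line. The HER2 kinase was inhibited with the small molecule CP724,714 at 1 µM in parallel cultures, and RNA was taken every 3 h from 0 to 45 h to follow expression as a function of time. The 0 h culture was the 1 untreated sample, the other 15 were treated, and each time point had 1 array and no replicate. All cultures grew in serum-free medium without insulin that held EGF, hydrocortisone, transferrin and selenium; the medium was changed when the inhibitor was added, and no vehicle-treated culture was analysed here, so inhibitor, fresh medium and time in culture cannot be told apart.

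Metallothioneins are small cysteine-rich proteins that bind zinc and copper, and also toxic metals such as cadmium. MTF1 is activated by zinc and binds short metal response elements (MREs) in front of metallothionein genes and of SLC30A1, which encodes a transporter that carries zinc out of the cell. Metallothionein genes are also known to respond to glucocorticoids, and the 6 metallothioneins lie in a cluster of closely similar genes on chromosome 16, in the RefSeq order MT2A, MT1E, MT1A, MT1F, MT1G, MT1X. MTF1 and SLC30A1 are on chromosome 1. Because the paralogs share much of their sequence, a metallothionein probe may also bind transcripts of its neighbours, and how far it did was not tested.

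The MRE core was searched as TGCACNC and TGCGCNC, on both strands and with no overlapping matches, in the 250 bases before the RefSeq start (GRCh38.p14), which were at hand for 4 members. The stretches that held a match are shown because this element is the shared switch of the family. They run 5′ to 3′ on the strand of the gene, and capitals mark the matches. MT2A lies at chr16:56608334-56608583 (plus strand), MT1X at chr16:56682220-56682469 (plus strand) and SLC30A1 at chr1:211579162-211579411 (minus strand).

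MT2A: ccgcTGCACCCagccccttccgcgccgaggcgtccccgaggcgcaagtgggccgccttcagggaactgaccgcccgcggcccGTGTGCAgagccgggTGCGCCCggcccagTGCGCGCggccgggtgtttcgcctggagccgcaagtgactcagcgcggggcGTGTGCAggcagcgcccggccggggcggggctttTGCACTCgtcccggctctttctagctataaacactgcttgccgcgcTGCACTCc

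MT1X: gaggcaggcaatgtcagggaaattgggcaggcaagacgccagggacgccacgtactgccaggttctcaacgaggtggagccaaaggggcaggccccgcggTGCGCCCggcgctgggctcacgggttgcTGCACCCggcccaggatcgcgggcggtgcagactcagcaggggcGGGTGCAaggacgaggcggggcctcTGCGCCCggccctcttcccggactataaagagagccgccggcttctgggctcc

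SLC30A1: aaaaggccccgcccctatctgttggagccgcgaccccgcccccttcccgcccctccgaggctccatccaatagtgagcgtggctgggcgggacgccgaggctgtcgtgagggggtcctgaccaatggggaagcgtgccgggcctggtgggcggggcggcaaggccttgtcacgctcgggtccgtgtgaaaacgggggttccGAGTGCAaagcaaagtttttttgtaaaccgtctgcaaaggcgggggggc

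MT2A held 7 matches, and 0.0228% of 35116 promoter stretches of the same length held as many or more. MT1X held 4, where 0.208% of the stretches held as many or more. SLC30A1 held 1, where 24.8% of the stretches held at least 1. MTF1 held 0 in its stretch (chr1:37859593-37859842, minus strand), which says only that these letters are not in this window. Counted from the start, the matches of MT2A ran from position -246 to position -2, and the single match of SLC30A1 lay at -49 to -43. A match is a string of letters and no evidence of binding in these cells.

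**Figure D1:**
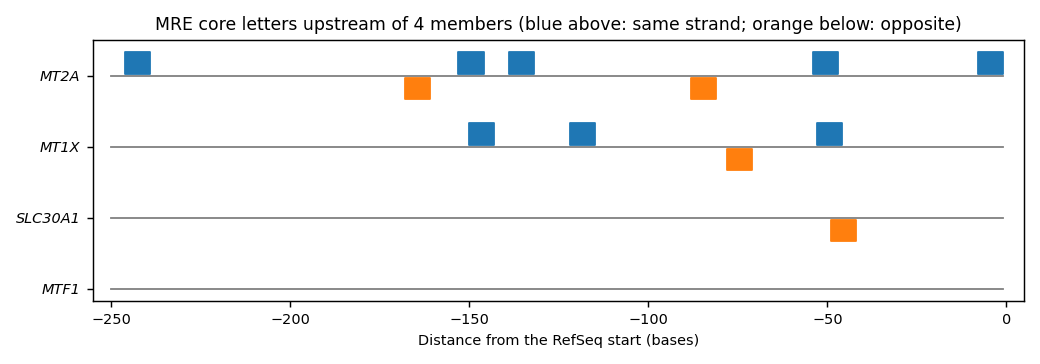
Matches to the MRE core letters in the 250 bases before the RefSeq start of MT2A, MT1X, SLC30A1 and MTF1; the x axis is the distance from the start in bases, blue boxes above a line are matches on the strand of the gene and orange boxes below it are matches on the opposite strand. MT2A shows 7 boxes, MT1X 4, SLC30A1 1 and MTF1 0.

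The arrays were not alike in brightness. The background signal was 135.93 to 148.88 on the 0 to 21 h arrays and 164.48 to 173.87 on the 24 to 45 h arrays, and the upper quartile was 397 at 9 h and 418 at 18 h, the dimmest arrays, against 553 to 804 on the rest. The arrays before 24 h and from 24 h on are called the array batches below. This split was made here from the background signal alone, and no label names a batch. It follows time, so batch and time cannot be told apart. The RNA carried the epithelial keratins KRT5, KRT8, KRT17 and KRT18 on all 16 arrays, whereas the basal markers KRT14 and LAMB3 were detected on at most 1 and 2. The basal marker CDH3 was detected on all 16, at 1539 to 3738, and TP63 had 0 probes. The luminal markers GATA3 and FOXA1 were detected on all 16 too, but dimly, at 218.3 to 404.4 and 232.7 to 559.9. KRT14 read 143 to 222.6, near the background. The brighter LAMB3 probe read 3011 to 7416, so its low detection count does not mean a low signal. ESR1, PGR, VWF, COL1A1, COL1A2 and PDGFRB were detected on none, and CD68 and PECAM1 on all 16. CD3E was detected on 1 array, and the PTPRC and ERBB2 probes on at most 7. Whether the ERBB2 probes read the transduced HER2 sequence was not tested.

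Time dependence was tested in limma with a smooth curve over the 16 arrays (a natural spline), and 6 of the 8 members passed an adjusted p of 0.05, namely MT1A, MT1F, MT1G, MT1X, MT2A and SLC30A1. Among all tested probes 41.9% passed, so a call of time dependence by itself sets a member little apart. A straight line in time gave 0 members that rose and 2 that fell, MT1F and SLC30A1, against 12.9% of all tested probes rising and 11.5% falling. The median change over 45 h on the log2 scale was -0.07 for the 8 members and -0.0022 for all tested probes, and the median fitted range was 0.294 and 0.265. Among the members MT1G rose and fell again, and MT1F and SLC30A1 fell. MT2A, MT1A and MT1X were so bright that the scale limits what can be seen of them. With arrays scaled to a common median instead of quantile normalized, the split of rising and falling probes moved from 1584 and 1420 to 2409 and 585, while the 2 falling members were still called, and the fitted ranges of MT1A and MT2A went from 0.20 and 0.21 to 0.695 and 0.705.

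Against the 0 h array, a change of 1.7-fold or more, the study's criterion, was seen for 2 members. MT1G was past it upward at 3 time points and downward at 2, and MT1F downward at 4. Of all tested probes 10.9% were past it upward and 9.47% downward at some time. This criterion has no error term and rests on the single 0 h array; scaled to a common median, MT1A and MT2A passed it too.

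**Figure D2:**
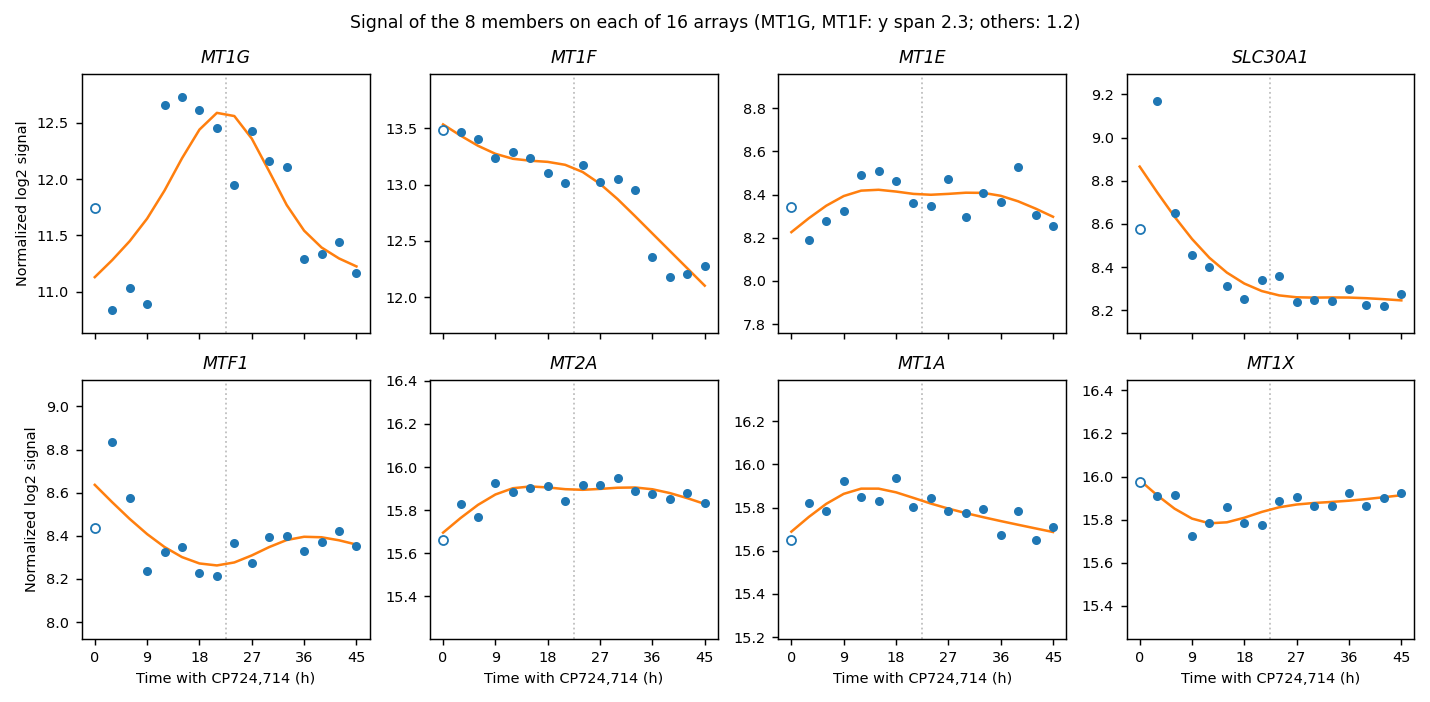
Normalized log2 signal (y) of the 8 members against hours with CP724,714 (x), 1 point per array; the open point is the untreated 0 h array, the orange line is the fitted spline and the dotted line separates the array batches. MT1G steps up between 9 and 12 h and down between 33 and 36 h, MT1F drops between 33 and 36 h, and SLC30A1 and MTF1 are highest at 3 h.

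MT1G, one of the metal-inducible metallothionein 1 isoforms, moved most. Its normalized log2 signal was lowest at 10.84, had a median of 11.84 and was highest at 12.73, a range of 3.71-fold. It stood at 11.74 in the untreated culture, between 10.84 and 11.04 at 3 to 9 h, between 12.45 and 12.73 at 12 to 21 h, between 11.95 and 12.43 at 24 to 33 h, and between 11.17 and 11.44 at 36 to 45 h. The sets of time points followed each other with no overlap: all arrays at 12 to 21 h were above all others, and all arrays at 3 to 9 h were below all others. How many of all tested probes separate without overlap was not counted, here or for the members below. The deposited intensities, before any normalization, ran from 1273 at 9 h to 7100 at 15 h.

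Because the signal moved in steps that a smooth curve blurs (its adjusted p in the spline test of limma was 0.0187, with a residual SD of 0.51), the arrays were also compared as 5 successive sets, 0 h, 3 to 9 h, 12 to 21 h, 24 to 33 h and 36 to 45 h, a grouping chosen after the values were seen. From 0 h to 3 to 9 h MT1G fell by 0.82 on the log2 scale (SE 0.16, adjusted p = 0.0037 in limma), with the lone 0 h array assumed to vary like the others. It was the 1 member that fell there, where 7.17% of all tested probes fell. From 3 to 9 h to 12 to 21 h it rose 3.23-fold, by 1.69 (SE 0.11, adjusted p = 9.69e-09 in limma), a rise that only 32 of the tested probes, 0.26%, matched or passed. Between neighbouring arrays the rise lay between 9 h, at 10.89, and 12 h, at 12.66.

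The next set, 24 to 33 h, was 0.45 lower, which missed the threshold (adjusted p = 0.0509 in limma), and 36 to 45 h was 1.81-fold lower again, by 0.85 (SE 0.10, adjusted p = 2.87e-05 in limma). That fall was matched or passed by 52 of the tested probes, 0.422%. MT1G ended 0.57 below its untreated level, at 11.17 against 11.74. Its change along a straight line was therefore near 0, -0.04 (SE 0.49, adjusted p = 0.968 in limma). The 3 steps past the threshold stayed past it under each alternative tried for them, with values from -1.40 to -0.74, 1.57 to 2.29 and -0.93 to -0.76. No block was among these alternatives, and the sets were chosen with the steps already seen. The spline call was lost without the 3 h array (adjusted p = 0.0504 in limma). Within the array batches the linear change of MT1G over 21 h was 1.78 in the first (adjusted p = 0.0582 in limma) and -1.11 in the second (adjusted p = 0.00184). The steps at 12 h and 36 h fell where many other probes stepped too, and how arrays were grouped in processing is not given in the sources used here, so time and array set cannot be told apart.

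MT1F, another metallothionein 1 isoform, fell through the experiment. Its log2 signal was highest in the untreated culture, at 13.48, had a median of 13.08 and was lowest at 39 h, at 12.18. The change over 45 h was -1.31 (SE 0.15, adjusted p = 6.87e-06 in limma), and 102 of the tested probes, 0.828%, fell as much or more. The fall was slow at first and then sharp: the signal was between 12.95 and 13.18 at 24 to 33 h and between 12.18 and 12.36 at 36 to 45 h, 2 sets that did not overlap.

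That late step, a 1.74-fold fall by 0.80 (SE 0.08, adjusted p = 3.9e-06 in limma), came at the same time points as the late fall of MT1G. MT1F and MT1G were the 2 members that fell from 24 to 33 h to 36 to 45 h and 0 members rose, against 8.45% of all tested probes falling and 8.86% rising. MT1F also fell within each array batch, by 0.46 over the 21 h of the first (SE 0.13, adjusted p = 0.0416 in limma) and by 1.10 over the 21 h of the second (SE 0.15, adjusted p = 0.00019 in limma). At 12 h, where MT1G rose, MT1F went from a mean of 13.37 to 13.16, which missed the threshold (adjusted p = 0.0521 in limma). The linear fall was lost only with sets of 4 consecutive arrays as the block, where it was -0.98 (adjusted p = 0.575 in limma). The late step held under each alternative tried for it, from -0.83 to -0.76, but no block was among these.

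**Figure D3:**
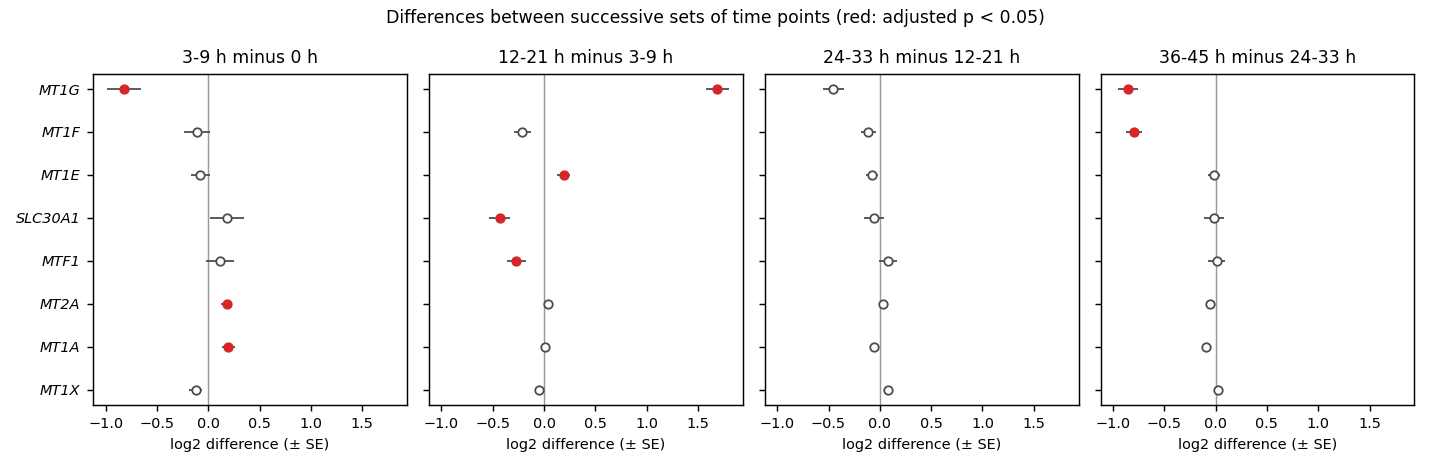
Difference in normalized log2 signal (x, with SE bars from limma) between successive sets of time points for the 8 members (y); red points had an adjusted p under 0.05 and open points did not. MT1G has the largest differences among the members, -0.82, 1.69 and -0.85, and MT1F joins it in the last panel at -0.80.

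MT1E, a further metallothionein 1 isoform, was dim. Its deposited intensity ran from 283.32 to 555.63 with a median of 457.9, and its log2 signal from 8.19 at 3 h over a median of 8.35 to 8.53 at 39 h. It did not pass the spline test (adjusted p = 0.341 in limma), and its linear change was 0.04 (SE 0.08, adjusted p = 0.788 in limma). From 3 to 9 h to 12 to 21 h it rose by 0.19, or 1.14-fold (SE 0.06, adjusted p = 0.022 in limma), so that MT1E and MT1G were the 2 members that rose at this step, where 19% of all tested probes rose. The ranges of these 2 sets, 8.19 to 8.32 and 8.36 to 8.51, did not overlap. This call was lost without the 3 h, the 12 h or the 15 h array, with adjusted p of 0.0709, 0.0515 and 0.0579 in limma. Sizes of change this close to the background depend on the processing. The fitted ranges of MT1E, MTF1 and SLC30A1 were 0.196, 0.374 and 0.62 here. With another background correction they were 0.421, 0.697 and 1.04, and with arrays scaled to a common median 0.283, 0.165 and 0.392. Folds of these 3 members are therefore uncertain.

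SLC30A1, the exporter that lowers cytosolic zinc, was highest at 3 h and lower from 12 h on. Its log2 signal was highest at 3 h, at 9.17, had a median of 8.30 and was lowest at 42 h, at 8.22. The 3 h array stood 1.51-fold above the untreated one, at 9.17 against 8.58, and this is 1 array with no replicate. From 12 h on all 12 arrays were below all 4 earlier ones, at 8.22 to 8.40 against 8.46 to 9.17. From 3 to 9 h to 12 to 21 h 20.3% of all tested probes fell, and how many separated in this way was not counted. The linear change of SLC30A1 was -0.54 (SE 0.13, adjusted p = 0.00614 in limma) and the spline passed too (adjusted p = 0.00623).

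The fall lay in the first part of the experiment: from 3 to 9 h to 12 to 21 h SLC30A1 fell by 0.43 (SE 0.11, adjusted p = 0.00401 in limma), and from 24 to 33 h to 36 to 45 h the difference was -0.02 (adjusted p = 0.936 in limma). The linear change was -0.95 with another background correction and -0.30 with arrays scaled to a common median, both still called, and the call was lost with the array batch as a block (adjusted p = 0.125 in limma), as was the spline call (0.0625). Within the batches it was -0.56 over 21 h in the first (adjusted p = 0.0738) and -0.06 in the second (adjusted p = 0.458). The step at 12 h was -0.16 and past no threshold with arrays scaled to a common median (adjusted p = 0.11 in limma).

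MTF1, the zinc-sensing factor itself, was also highest at 3 h, but its late values lay only a little below its untreated level, at 8.33 to 8.42 at 36 to 45 h. Its log2 signal was highest at 3 h, at 8.83, against 8.43 in the untreated culture, with a median of 8.36 and its lowest value of 8.21 at 21 h. Across the 16 arrays its values ran with those of SLC30A1 (Pearson's r = 0.82), and r was 0.80 for the changes from one array to the next and 0.875 without the dim 9 h and 18 h arrays. The points share the arrays and their brightness, and the r is a description. MTF1 missed the threshold of the spline test (adjusted p = 0.0991 in limma) but fell by 0.27 from 3 to 9 h to 12 to 21 h (SE 0.09, adjusted p = 0.0265 in limma). Thus MTF1 and SLC30A1 were the 2 members that fell at this step, where 20.3% of all tested probes fell. The step of MTF1 was lost without the 3 h array (adjusted p = 0.153 in limma), without the 6 h, 18 h or 21 h array (0.0788, 0.0612 and 0.0656) and with arrays scaled to a common median (0.533).

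MT2A, the main metallothionein of most human cells, gave one of the brightest signals of the table. Its deposited intensity was 57122 at 0 h, had a median of 60683 and reached 63782 at 30 h, where the brightest probe of an array lay between 66159 and 70425. MT1A was as bright, from 55170 to 62484 with a median of 58459. MT1X ran from 41136 at 9 h to 65218 at 0 h with a median of 61131. A signal so near the top of the scale has little room above it: the 62 tested probes with a mean above 50000 had a median SD over the arrays of 0.056 on the log2 scale, against 0.277 for the 2820 probes between 1000 and 5000. The SDs of MT2A, MT1A and MT1X were 0.07, 0.085 and 0.067, and a rise in their transcripts larger than the one measured cannot be seen here. Downward there was room, as the 41136 of MT1X on the dim 9 h array shows. How far a fall would be flattened was not tested.

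**Figure D4:**
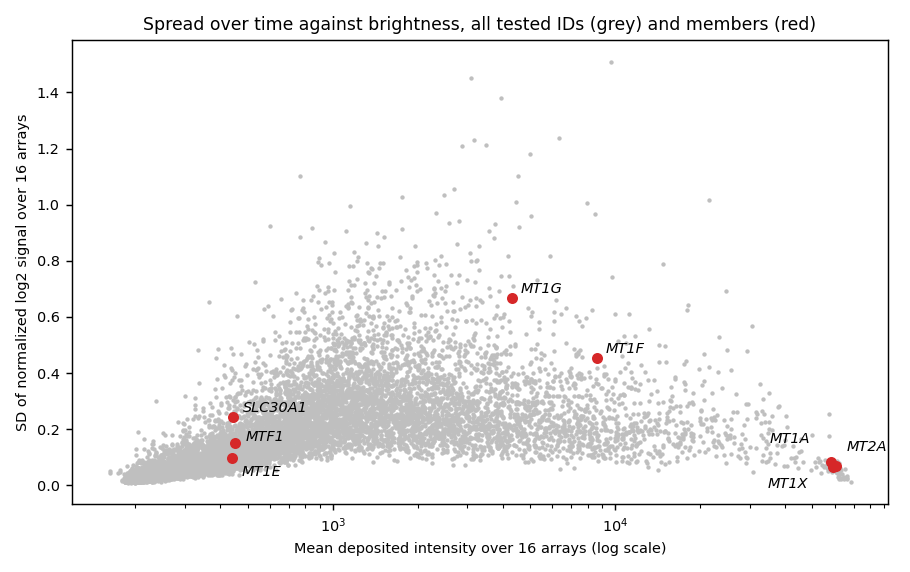
SD of the normalized log2 signal over the 16 arrays (y) against the mean deposited intensity (x, log scale) for all 12321 tested probes in grey and the 8 members in red. MT2A, MT1A and MT1X lie in the bright corner where spread is small (0.067 to 0.085), MT1G (0.667) and MT1F (0.454) lie in the middle, and MT1E, MTF1 and SLC30A1 lie near the dim end.

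Within this narrow span MT2A was lowest in the untreated culture: its log2 signal was 15.66 at 0 h and between 15.77 and 15.95 on all 15 treated arrays, at most 1.22-fold higher. MT1A was 15.65 at 0 h and again at 42 h, and its highest value was 15.94, on the dim 18 h array. From 0 h to 3 to 9 h MT2A rose by 0.18 (SE 0.05, adjusted p = 0.0287 in limma) and MT1A by 0.19 (SE 0.06, adjusted p = 0.0498 in limma), so that MT1A and MT2A were the 2 members that rose there, with 5.18% of all tested probes rising. This step sets 3 arrays against the lone 0 h array, which is assumed to vary like the other sets, and both probes are near the top of the scale. Both calls were lost with arrays scaled to a common median (adjusted p = 0.76 and 0.774 in limma) and without the 9 h array (0.0683 and 0.101); that of MT1A was lost under 14 of 21 alternatives.

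MT1X did not pass at that step (-0.12, SE 0.06, adjusted p = 0.192 in limma). Its highest log2 signal, 15.97, was in the untreated culture and its lowest, 15.72, at 9 h, on one of the dim arrays. Across the arrays its signal ran against MT1A (r = -0.773) and MT2A (r = -0.545). Without the dim 9 h and 18 h arrays r was -0.635 and -0.481. With these probes near the top of the scale, the r describe the signals only. All 3 passed the spline test in limma, MT2A with an adjusted p of 0.0164, MT1A of 0.018 and MT1X of 0.0477, but in the class of probes above 50000 the share that passed was 21%. Without the 9 h and 18 h arrays these adjusted p were 0.0522, 0.14 and 0.201. Without the 0 h array that of MT2A was 0.304, and without the 18 h array that of MT1A was 0.0501. The linear changes of MT2A, 0.09 (SE 0.06, adjusted p = 0.269 in limma), MT1A, -0.10 (SE 0.06, adjusted p = 0.271), and MT1X, 0.03 (SE 0.06, adjusted p = 0.738), were all short of the threshold. At the step from 12 to 21 h to 24 to 33 h, across the array batches, 0 of the 8 members passed in either direction, and few probes did, 0.203% upward and 0.381% downward.

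The signals of the 6 metallothionein probes did not follow 1 time course. MT2A, MT1A and MT1X were near the top of the scale and MT1E was dim. A low r with these probes therefore does not show that the transcripts differed. Over the 16 arrays r was 0.668 between MT1E and MT1G, 0.478 between MT1A and MT1F, 0.233 between MT1F and MT1G and -0.316 between MT1G and MT1X. Without the dim 9 h and 18 h arrays these r were 0.648, 0.487, 0.304 and -0.633. With the mean of the 6 standardized probes, r ran from 0.812 for MT1G to -0.417 for MT1X. The probes of other genes most like this mean were RDBP (r = 0.922), HNRPA3 (0.92), FHOD3 (0.917), PLOD1 (0.91) and KDELR3 (0.896). Chosen after the values were seen, the probes most like MT1G alone were NRM and RAD51AP1, each with r = 0.973, and the one most like MT1F alone was PFN1 (0.959). These are descriptions over 16 arrays that share their brightness and their order in time.

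The remaining metallothioneins were hardly seen. Of 6 in the table, MT1H, MT1M, MT1JP and MT3 were detected on 0 arrays, MT1B on 2 and MT4 on 6, and MT4, the 1 tested, passed neither the linear (adjusted p = 0.0526) nor the spline test (0.115) in limma. Of the other zinc exporters of the SLC30 family, 5 of 9 in the table were tested, 4 passed the spline test, 0 rose and 1 fell along the line, beside 41.9%, 12.9% and 11.5% of all tested probes. The 1 that fell was SLC30A5: this transporter, which loads zinc into the secretory pathway, changed by -0.75 (SE 0.11, adjusted p = 9.3e-05 in limma). Its probe counted as detected on only 10 arrays, although its log2 signal, 8.70 to 9.47, lay above that of MT1E (8.19 to 8.53), detected on all 16. The median linear change of these exporters was -0.05. SLC30A9, named after its values were seen, passed the spline test (adjusted p = 0.0297 in limma) with a linear change of 0.41 that missed the threshold (adjusted p = 0.0978), and it rose by 0.46 at the step at 12 h (adjusted p = 0.00377), where SLC30A1 fell.

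Of the zinc importers of the SLC39 family, 11 of 14 were tested, and 6 passed the spline test, 1 rose and 3 fell along the line, with a median of -0.05. Of all tested probes 41.9% passed the spline test, 12.9% rose and 11.5% fell. With 11 importers tested, their shares are imprecise. SLC39A14, a zinc and manganese importer, changed most, by -1.12 (SE 0.30, adjusted p = 0.00947 in limma): it was 10.59 at 0 h, highest at 3 h, at 10.87, and lowest at 45 h, at 9.12. SLC39A8 changed by -0.80 (SE 0.14, adjusted p = 0.000382) and SLC39A4, which takes up zinc in the gut, by -0.70 (SE 0.20, adjusted p = 0.0184), and both fell at the step at 36 h, by 0.53 and 0.55. At that step, to name 2 more importers after their values were seen, SLC39A10 also fell, by 0.24 (adjusted p = 0.00995 in limma), and SLC39A7 rose by 0.30 (adjusted p = 0.0333), with 8.45% of all tested probes falling and 8.86% rising. SLC39A11 was the importer that rose, by 0.39 (SE 0.07, adjusted p = 0.000441).

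**Figure D5:**
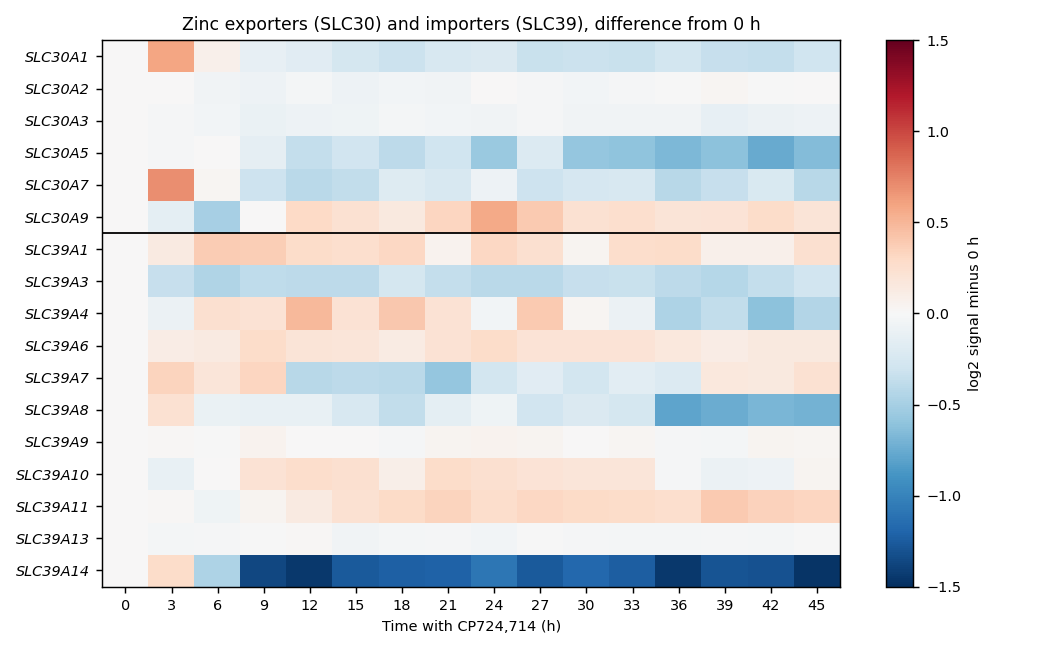
Difference in normalized log2 signal from the 0 h array (colour, red higher and blue lower) for the tested zinc exporters, with SLC30A1 on top, and importers (rows) at each time point (columns). SLC30A1 is highest at 3 h, SLC30A9 is above its 0 h level from 12 h on, and SLC39A14 is far below its 0 h level from 9 h on.

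Copper is the other essential metal that metallothioneins bind. Among 8 tested genes of copper handling 3 passed the spline test, 1 rose and 1 fell, no more than the 41.9% of all tested probes for the spline and near the 12.9% and 11.5% for the line. CCS, the copper chaperone of superoxide dismutase, rose by 0.49 (adjusted p = 0.00364 in limma) while the importer SLC31A1 fell by 0.37 (adjusted p = 0.006); the median was 0.11. Of 13 heat shock and oxidative stress genes that metals can induce, 6 passed the spline test, 0 rose and 4 fell, with a median of -0.12, beside 41.9%, 12.9% and 11.5% of all tested probes. GCLM, a subunit of the enzyme that starts glutathione synthesis, fell by 1.39 (SE 0.19, adjusted p = 5.41e-05 in limma), and HMOX1, heme oxygenase 1, by 1.29 (SE 0.37, adjusted p = 0.0172). SRXN1, which repairs oxidized peroxiredoxins, fell by 0.72 (adjusted p = 0.033).

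Of 11 tested genes known to respond to glucocorticoids, hormones that also act on metallothionein genes, 7 passed the spline test, 7 rose and 0 fell along the line, beside 41.9%, 12.9% and 11.5% of all tested probes. Their median change was 0.60, and that of all tested probes -0.0022. ZBTB16 rose by 1.59 (SE 0.25, adjusted p = 0.000176 in limma), TSC22D3 by 0.99 (SE 0.25, adjusted p = 0.00789) and KLF9 by 0.98 (SE 0.28, adjusted p = 0.0166). Hydrocortisone was part of the medium at every time point.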

How the data were processed

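The values the authors deposited are probe intensities, not normalized between arrays, from Illumina human Ref-8 v2 beadchips, with a detection p-value per probe and array deposited beside each; the scanner software is not given in the sources used here. Groups were taken from the labels, 1 array per time point, so p-values measure scatter about a fit in time, and the number of arrays limits the precision. In limma 3.58.1 (R 4.3.3) intensities were background-corrected with neqc (control moments inferred from detection p-values, offset 16), quantile normalized and taken to log2. Probes were kept where detection p was below 0.05 on at least 3 arrays and tested (lmFit, eBayes with trend) against a natural spline of time with 4 degrees of freedom and a straight line, given as log2 change over 45 h, with Benjamini-Hochberg adjustment over all 12321 probes. The fits were tested on simulated data. Of several probes of a listed gene, the brightest was used, and of each list the 3 largest linear changes among probes past a threshold are named, with all members and the 5 probes most like the metallothionein mean. Gene lists came from general knowledge. The members and lists were chosen with earlier results of these data known. For 1482 probes of the table, but for 0 of the members, detection p-values were off the step of the others. RefSeq names matched all 8 members, and upstream sequence 4. Probe sequences were not used here. Alternatives changed background correction, normalization, filter, spline, blocks and arrays.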

Additional observations from a re-analysis of the deposited data

How the results depend on the processing

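No paired analysis was possible because no time point was arrayed more than once. The number of members past 1.7-fold, 2, became 4 with median scaling and 1 at 2-fold; MT1F was the 1 left. Against the median of the 16 arrays in place of the 0 h array it was 3, with SLC30A1 added. The 6 time-dependent members became 3 with the array batch as a block, 3 without the 9 h and 18 h arrays and 0 with sets of 4 time points as a block, and 4 to 6 with single arrays left out. The 2 linear calls became 1 with the array batch as a block, 0 with the sets as a block, 1 with the arrays from 0 to 21 h alone, and 2 to 3 with single arrays left out. Over all probes the sets left 0 rising and 0 falling, since such a block takes up the differences between sets. The 1.7-fold count without the 0 h array was not run, as that array is the baseline.

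Signs turned only for linear changes short of the threshold. With median scaling these were 0.34 for MT1G, -0.029 for MT1X, -0.094 for MT2A and 0.046 for MTF1. With the array batch as a block MT1A had 0, MT1G 0.63 and MT1X -0.16, and with the sets as a block MT1A had 0.20, MT1E -0.36 and MT1X -0.34. On the arrays from 0 to 21 h alone the slope, scaled to 45 h, was 0.42 for MT1A, 3.82 for MT1G and -0.49 for MT1X, and on those from 24 to 45 h alone -0.16 for MT1E, -0.15 for MT2A and 0.10 for MTF1. Without the 9 h and 18 h arrays MT1X had -0.01. With single arrays left out the slope ran from -0.021 to 0.095 for MT1E, -0.381 to 0.225 for MT1G and -0.002 to 0.086 for MT1X. The spline call of MT1X held under 6 of 26 alternatives. The causes were not tested.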
